A study of Mus musculus with 2 samples.

Results

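The 10 heat shock chaperone genes described here were *Hspa1a*, *Hspa1b*, *Hspa8*, *Hsph1*, *Hsp90aa1*, *Hsp90ab1*, *Dnajb1*, *Hspb1*, *Hspd1* and *Hspe1*. They were taken by gene symbol from a table of 129299 transcripts with 45777 gene symbols, in which they hold 16 transcripts. The RNA came from livers of C57BL/6 N mice that started a high-fat diet (HFD) at 7 weeks of age, stayed on it for 18 weeks and received an adeno-associated virus (AAV) at week 13, 5 weeks before the end. Both groups were fed the HFD, and one received AAV-GFP as the control while the other received AAV-*Wee1-AS*, which overexpresses the long noncoding RNA *Wee1-AS*. The AAV9 vector of *Wee1-AS* carried a CMV promoter, which is not restricted to hepatocytes. One library of poly-A RNA per group was analysed, although the design text speaks of 4 liver samples, and whether a library holds RNA of 1 mouse or of several is not given in the sources used here. The comparison asks how the liver transcriptome differed after *Wee1-AS* was delivered. With 1 library per group the difference has no replicate check, no p-value is given, and each interval below compares the 2 libraries, not the treatments.

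Heat shock proteins bind unfolded or partly folded proteins and help them reach or regain their fold. Hsp70 proteins (*Hspa1a*, *Hspa1b*, *Hspa8*) work in cycles of ATP hydrolysis that a J-domain protein such as *Dnajb1* starts and that a nucleotide exchange factor such as *Hsph1* completes, and Hsp90 proteins (*Hsp90aa1*, *Hsp90ab1*) take over many kinases and steroid receptors from them. *Hspb1* belongs to the small heat shock proteins, which hold unfolded proteins without ATP, and *Hspd1* and *Hspe1* encode the chamber and the lid of the mitochondrial chaperonin. *Hspa8* and *Hsp90ab1* are made in unstressed cells, whereas *Hspa1a* and *Hspa1b* are the classical genes that heat shock factor 1 (HSF1) switches on, through repeats of the letters GAA in alternating direction.

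Such repeats were looked up in the promoters, to describe the DNA near the starts of these genes. RefSeq promoters of the mouse build GRCm38.p6, 250 bases before to 50 bases after the start, were matched for 7 of the 10 genes, and *Hspa8*, *Hsp90aa1* and *Hsp90ab1* had no entry. The letters GAANNTTC or TTCNNGAA, which read the same on both strands, were found in 6 of the 7, against 15.1% of 32851 promoters. Both forms overlapping in their shared GAA or TTC, so that the repeats alternate once more, were found on either strand in 3 of the 7 (*Hspd1*, *Hspe1* and *Hsph1*), against 0.603% of promoters. The shares over all promoters are given as description only, since the genes were picked as heat shock genes. These windows are not all separate, so the same letters count for more than 1 gene. Those of *Hspd1* and *Hspe1* cover nearly the same bases, and those of *Hspa1a* and *Hspa1b* are nearly identical. *Dnajb1* held no match in its window. The following stretches hold the matches that lie upstream of the main start of the gene named, 5′ to 3′ along the strand given, with the matched GAA and TTC in capitals. Of the 3 matches of *Hsph1*, only the upstream one is shown.
Hspa1a, chr17:34972207-34972306, minus strand: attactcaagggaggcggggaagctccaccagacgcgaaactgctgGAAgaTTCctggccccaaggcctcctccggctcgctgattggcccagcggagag
Hspb1, chr5:135887769-135887868, plus strand: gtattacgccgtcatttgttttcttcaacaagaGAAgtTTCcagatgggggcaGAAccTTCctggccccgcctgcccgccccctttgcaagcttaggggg
Hsph1, chr5:149636351-149636380, minus strand: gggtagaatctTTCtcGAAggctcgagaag
Hspe1 and Hspd1, chr1:55088053-55088082, plus strand: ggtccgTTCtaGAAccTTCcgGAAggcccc

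*Hspb1* and *Hspa1a* were printed as GC-rich, stress-inducible genes whose ratios lay below 0, and *Hsph1*, *Hspe1* and *Hspd1* as genes whose ratios lay above it. This only says which genes were printed, and whether the letters relate to the ratios was not tested. The matches begin at -117 and -97 in *Hspb1* and at -104 in *Hspa1a*, counted from the start. The stretch of *Hspa1b* (chr17:34959289-34959388, minus strand) is the same as that of *Hspa1a* in all 100 bases. Over the whole 300-base windows the neighbours were 98.7% identical, with 4 differences (C44T, T47C, T249G and C276T, the base of *Hspa1a* first, counted from 1 at the 5′ end of the window), and their starts lie 12918 bases apart. *Hspd1* and *Hspe1* face away from each other with 215 bases between their main starts, and the stretch between them with its 4 alternating repeats is shared by both. In *Hsph1* the overlapping match lies downstream, from base 16 after the start, outside the stretch shown. A match describes these letters only, since no binding was measured in these livers.

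The depth was 55466182 estimated read counts with AAV-GFP and 48079335 with AAV-*Wee1-AS*. Liver identity was clear in both, with all 8 hepatocyte markers past the count filter and a summed level of 92937 and 102174 TPM (a level per transcript length, scaled to the same sum in each library). Smooth muscle markers were at 19.5 and 4.11 TPM in sum, with *Cnn1* at 0 in both libraries, and erythroid markers at 3357 and 1789 TPM. Ratios across the transcriptome followed base composition, as described below.

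All 10 chaperones were measured well above the count filter of 10 counts in at least 1 library, the lowest count being 144. *Hspa8* had the highest level per length in both libraries, 867 TPM with AAV-GFP and 869 TPM with AAV-*Wee1-AS*, which put it above 98.9% and 99.1% of the genes measured. *Hsp90ab1* followed at 622 and 527 TPM. Of the summed TPM of the 10 genes, *Hspa8* held 45.4% and *Hsp90ab1* 32.5% with AAV-GFP, and 43.5% and 26.4% with AAV-*Wee1-AS*. The inducible *Hspa1a* and *Hspa1b* stood last in both libraries, at 3.14 and 7.65 TPM with AAV-GFP and at 1.84 and 4.26 TPM with AAV-*Wee1-AS*. The order between these ends differed. With AAV-GFP it was *Hspe1* (152 TPM), *Hspb1* (115), *Hspd1* (101), *Hsp90aa1* (18.1), *Dnajb1* (16.5) and *Hsph1* (10.4). With AAV-*Wee1-AS* it was *Hspd1* (267 TPM), *Hspe1* (207), *Hsp90aa1* (57.6), *Hspb1* (30.2), *Hsph1* (21.7) and *Dnajb1* (12.3). With no second library per group, which neighbours in these orders differ beyond the spread between mice could not be assessed. The summed level of the 10 genes was 1913 TPM with AAV-GFP and 1997 TPM with AAV-*Wee1-AS*, 0.191% and 0.200% of the total.

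**Figure D1:**
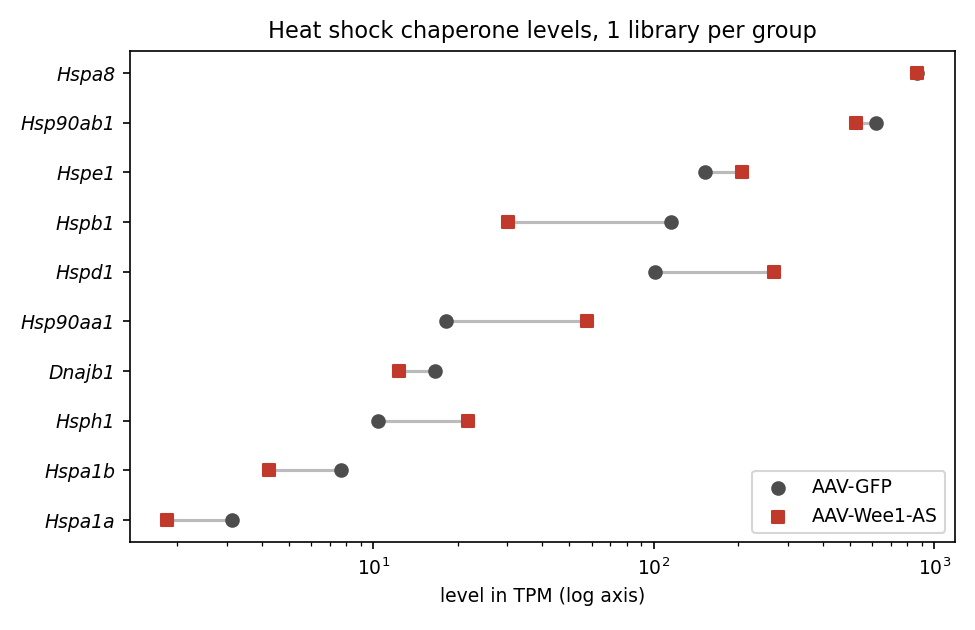
Levels of the 10 chaperones in TPM on a log axis, with the AAV-GFP library as grey circles and the AAV-*Wee1-AS* library as red squares, 1 library each. *Hspa8* and *Hsp90ab1* lie highest in both, *Hspb1* drops from 115 to 30.2 TPM, and *Hsp90aa1* and *Hspd1* move from 18.1 to 57.6 TPM and from 101 to 267 TPM.

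Ratios of AAV-*Wee1-AS* to AAV-GFP were taken from the scaled counts on a log2 scale, each with its 95% counting interval, which covers counting error only. Past 2-fold lay 4 of the 10 chaperones, against 31.0% of the 15857 genes measured. *Hsp90aa1*, *Hspd1* and *Hsph1* were the 3 higher ones, where 22.2% of all genes lay, and *Hspb1* was the 1 lower one, where 8.71% lay. The whole interval was past 2-fold for 2 higher genes (*Hsp90aa1* and *Hspd1*, against 16.0% of all genes) and 1 lower gene (*Hspb1*, against 3.72%). The interval was wholly above 0 for 5 genes (39.1% of all genes) and wholly below it for 5 (38.0%). These shares are close to those of all genes in this scaling, and the median log2 ratio of the 10 chaperones was -0.09, beside -0.02 over all genes.

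The inducible Hsp70 genes had the lowest levels of the 10 in both libraries. Among all genes measured, *Hspa1a* lay above 47.8% by TPM with AAV-GFP and above 35.2% with AAV-*Wee1-AS*. For *Hspa1b* these shares were 62.7% and 49.6%. *Hspa1a* (NCBI Gene 193740, chr17:34969359-34972156, mm10) had 290 counts with AAV-GFP and 144 with AAV-*Wee1-AS*, a log2 ratio of -0.74 (95% counting interval -1.04 to -0.45). *Hspa1b* (15511, chr17:34956429-34959238) had 708 and 334 counts, a log2 ratio of -0.82 (-1.01 to -0.63). Both values were within 2-fold in the main scaling, while *Hspa1b* was at -1.02 with upper quartile scaling. The level of *Hspa1b* was 2.43 times that of *Hspa1a* with AAV-GFP and 2.31 times with AAV-*Wee1-AS*. The pair cannot be fully separated, since 47.1% of the 100-base windows of the *Hspa1a* transcript also occur in *Hspa1b*. Their summed counts, 998 and 478, gave a log2 ratio of -0.80 (-0.96 to -0.64).

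*Hspa8* (15481, chr9:40801276-40805202), the constitutive Hsc70, was level. It had 60088 counts with AAV-GFP and 50998 with AAV-*Wee1-AS*, a log2 ratio of 0.03 (0.00996 to 0.04). Its level per length was 113 times that of *Hspa1b* with AAV-GFP and 204 times with AAV-*Wee1-AS*. The sign of so small a ratio depended on how the libraries were scaled, with values from -0.18 to 0.22 over 8 alternatives. The pseudogene *Gm15459*, which shares 58.5% of the 100-base windows of *Hspa8*, had 7614 and 6239 counts. Small nucleolar RNA genes in the introns of *Hspa8* held few counts in this poly-A data, 2 and 10 for *Snord14c*, 6 and 6 for *Snord14d* and 7 and 11 for *Snord14e*.

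The partners of Hsp70 had ratios of opposite sign. *Hsph1* (15505, chr5:149616843-149636498), the Hsp110 exchange factor, had 1195 counts with AAV-GFP and 2104 with AAV-*Wee1-AS*, 2.11 times as many after scaling, a log2 ratio of 1.08 (0.98 to 1.18). Its interval reaches below 2-fold, and it stayed past 2-fold in 4 of the 7 alternatives that left base composition aside. *Dnajb1* (81489, chr8:83608175-83612653), the heat-inducible Hsp40 that feeds substrates to Hsp70, had 1641 and 1036 counts, a log2 ratio of -0.40 (-0.51 to -0.29). In levels per length, there were 83.3 *Hspa8* transcripts for each *Hsph1* transcript with AAV-GFP and 40.1 with AAV-*Wee1-AS*, and 52.5 and 70.6 for each *Dnajb1* transcript. Neither gene shared a 100-base window with another gene.

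Of the Hsp90 paralogs, the inducible one was past 2-fold higher and the constitutive one was not. *Hsp90aa1* (15519, chr12:110691036-110696395), the form that stress induces, had 1700 counts with AAV-GFP and 4583 with AAV-*Wee1-AS*, 3.23 times as many after scaling. Its log2 ratio of 1.69 (1.61 to 1.78) was the highest of the 10. *Hsp90ab1* (15516, chr17:45567778-45573261), the constitutive form, had 51319 and 36848 counts, a log2 ratio of -0.21 (-0.23 to -0.19). The level of *Hsp90ab1* was 34.3 times that of *Hsp90aa1* with AAV-GFP and 9.14 times with AAV-*Wee1-AS*. Since *Hsp90ab1* carries most of the family's reads, the summed counts of the paralogs, 53019 and 41431, gave a log2 ratio of -0.09 (-0.11 to -0.07). *Gm12346*, which shares 39.6% of the 100-base windows of *Hsp90aa1*, had 170 and 429 counts, a log2 ratio of 1.59.

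*Hspb1* (15507, chr5:135887919-135889563), which encodes the small heat shock protein Hsp25 in mice, fell the furthest. It had 3424 counts with AAV-GFP and 762 with AAV-*Wee1-AS*, a log2 ratio of -1.90 (-2.02 to -1.79), or 3.74-fold lower. Its share of the chaperones' summed TPM was 6.02% with AAV-GFP and 1.51% with AAV-*Wee1-AS*. The pseudogene *Hsp25-ps1* shares 56.3% of its 100-base windows and had 258 and 69 counts, and the sum of both gave a log2 ratio of -1.88. In bulk liver, fewer cells of a type and less RNA per cell cannot be told apart. *Hspb1* is abundant in muscle cells, and 2 of the 3 smooth muscle markers past the count filter were also past 2-fold lower, *Acta2* (331 and 82 counts) and *Tagln* (780 and 106), while *Myh11* had 98 and 122. Of 8 stellate cell and fibroblast markers 3 were past 2-fold lower and 1 was higher, with a summed level of 169 and 133 TPM. The part of such cells in the *Hspb1* value was not tested.

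Of the mitochondrial chaperonin genes, *Hspd1* was past 2-fold higher with AAV-*Wee1-AS* and *Hspe1* was not. *Hspd1* (15510, chr1:55077833-55088243), the chamber subunit Hsp60, had 7765 counts with AAV-GFP and 17439 with AAV-*Wee1-AS*, 2.70 times as many after scaling, a log2 ratio of 1.43 (1.39 to 1.47). *Hspe1* (15528, chr1:55088148-55091317), the lid subunit Hsp10, had 3842 and 4435 counts, a log2 ratio of 0.47 (0.41 to 0.53), within 2-fold. The ratio of *Hspd1* to *Hspe1* in TPM was 0.664 with AAV-GFP and 1.29 with AAV-*Wee1-AS*. Both genes flank the stretch of DNA printed above. The minor *Hspd1* transcript that reaches past the start of *Hspe1*, on the other strand, held 4.93% and 5.24% of the counts of *Hspd1*. *Hspd1-ps3*, which shares 25.8% of the 100-base windows, had 174 and 302 counts, and *Hspd1* summed with its pseudogenes gave a log2 ratio of 1.42.

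One listed transcript carried nearly all counts of each gene. Of the 10 genes, 6 had 1 listed transcript, and in the others the main one held from 94.8% (*Hspd1*) to 100% (*Dnajb1*) of the counts in a library.

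**Figure D2:**
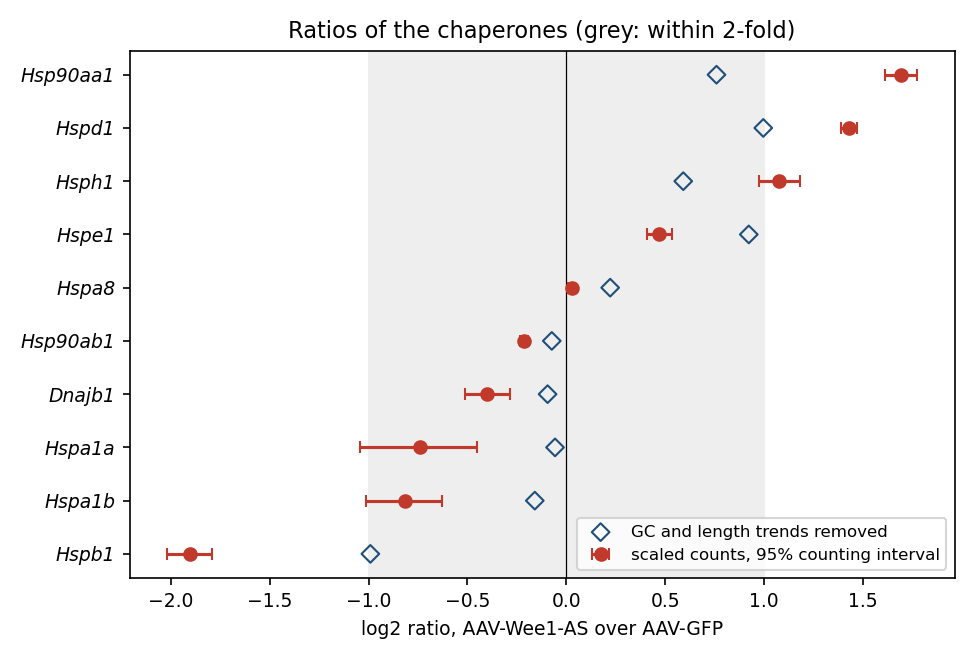
Log2 ratios (AAV-*Wee1-AS* over AAV-GFP) for the 10 chaperones, as red circles with 95% counting intervals, and after trends with GC content and length were removed, as open diamonds. The red circles span -1.90 to 1.69 with 4 outside the grey 2-fold band, and the diamonds span -0.99 to 1.00 with none outside it.

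The ratios of the chaperones followed the base composition of their transcripts. Over the 15100 genes with a GC content, Spearman's coefficient of the log2 ratio with GC content was -0.69, and over the 10 chaperones it was -0.94, given as descriptions, since genes of the same 2 libraries are not replicates. *Hsp90aa1* had the lowest GC content of the 10 (43.7%) and the highest ratio, and *Hspb1* had the highest GC content (60.7%) and the lowest ratio. *Hspd1* (46.8%) and *Hsph1* (47.4%) came next to the former, and *Hspa1a* (58.9%) and *Hspa1b* (58.1%) next to the latter. Genes were divided by GC content into 10 equal groups. In the group that held *Hsp90aa1*, with 42.1% to 44.5% GC, the median log2 ratio was 1.14, and in that of *Hspb1* and *Hspa1a*, with 58.1% to 72.8% GC, it was -0.69. The middle 80% of genes in the latter group lay between -1.30 and -0.09, with *Hspa1a* inside this range and *Hspb1* below it. The other 9 chaperones all lay within the 10th to 90th percentile of genes of like GC content.

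When trends of the ratio with GC content and length were fitted and removed, none of the 10 chaperones remained past 2-fold, against 6.44% of all genes past it higher and 7.49% lower. *Hspd1* was then at 1.00, just under the limit, *Hspe1* at 0.92, *Hsp90aa1* at 0.76 and *Hsph1* at 0.59. *Hspa1a* was at -0.06, *Hspa1b* at -0.16, *Dnajb1* at -0.09 and *Hsp90ab1* at -0.07, and *Hspa8* was at 0.22. *Hspb1* stayed lowest at -0.99, just inside the limit. The chaperonin genes *Hspd1* and *Hspe1*, which differed by the counts alone, came to lie side by side. The sign stayed for all 10 genes. The cause of the trend with base composition was not tested.

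**Figure D3:**
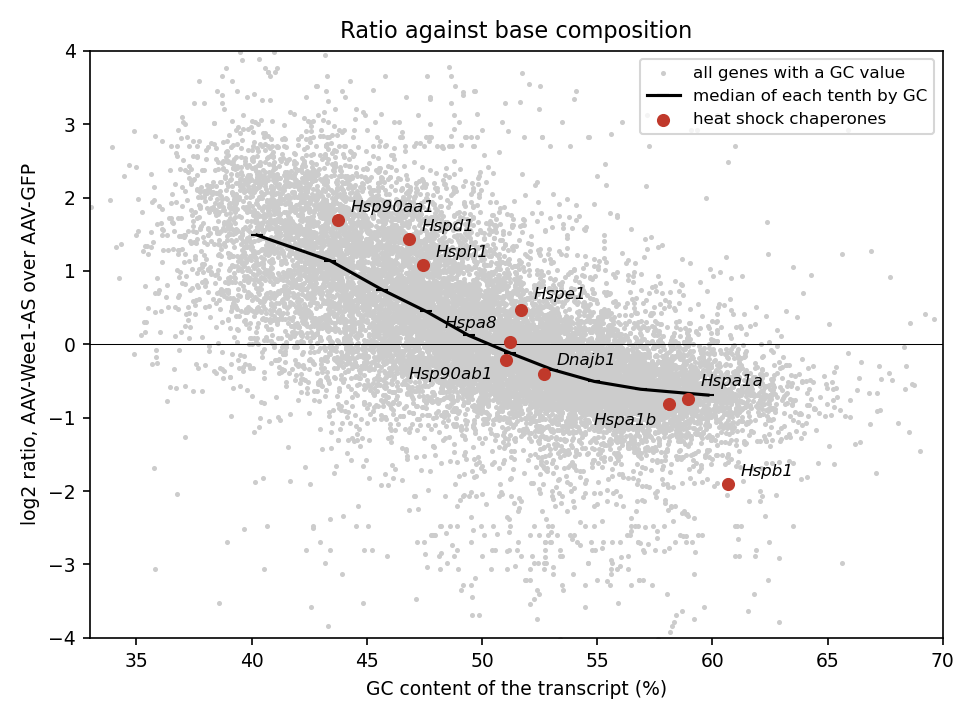
Log2 ratio (AAV-*Wee1-AS* over AAV-GFP) against the GC content of the transcript in percent, for 15100 genes (grey, 45 of them outside the plotted range) and the 10 chaperones (red), with the median of each of 10 equal groups of genes by GC content as a black line. The line descends from 1.49 to -0.69, and *Hspb1* lies furthest below it among the chaperones.

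Other chaperone genes were read from 10 lists of families and partners, which hold 125 genes, 115 of them past the count filter. Over all genes, 22.2% were past 2-fold higher and 8.71% lower, the shares to set beside the list counts from the scaled counts, and with the trends removed the shares were 6.44% and 7.49%. Of the 115 genes, 30 were past 2-fold higher and 4 lower, with a median log2 ratio of 0.02, and outside the 10 genes above the numbers were 27 and 3 of 105. With the trends in GC content and length removed, 5 were higher and 2 lower. The higher count was 19 with the upper quartile, which put 2938 of all 15857 genes past 2-fold higher, and 18 with FPKM, which put 1029 there. The lower count ranged from 2 to 9 over the alternatives, with 9, beside 2095 of all genes, when the transcript with most counts stood for the gene. A search of the gene descriptions for heat shock proteins and chaperones found 122 symbols, of which 105 passed the filter, 26 were past 2-fold higher and 4 lower.

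In the Hsp70 and Hsp110 family, 6 of 11 genes past the filter were past 2-fold higher (22.2% of all genes) and none lower (8.71%), and the median log2 ratio was 1.04. Among the 6, *Hspa12a*, named after its value was seen, had only 30 and 86 counts. The interval of *Hspa14* (1.04, 0.85 to 1.24), also named after its value was seen, reached below 2-fold, as did that of *Hsph1*. The exchange factors related to *Hsph1* were on the same side. *Hspa4* had 2990 and 5289 counts (log2 ratio 1.09), and *Hspa4l* had 263 and 868 (1.98). *Hspa13*, a microsomal Hsp70, had 359 and 1094 counts (1.86). *Hspa12b* had 108 and 69 counts (-0.37), with an interval that held 0 (-0.84 to 0.07) and a value of 0.26 with the trends removed. With the trends removed, 1 gene of the family was past 2-fold, *Hspa12a* at 1.18, and the median was 0.36. Of the 4 Hsp90 genes 2 were past 2-fold higher, *Hsp90aa1* and *Hsp90b1*, the form of the endoplasmic reticulum, with 12961 and 23978 counts (1.15, and 0.24 with the trends removed). With the trends removed, 0 of the 4 were past 2-fold. The mitochondrial *Trap1* had 11299 and 8333 counts (-0.18, but 0.13 with the trends removed).

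All 5 small heat shock proteins past the filter had ratios below 0, and 2 of them were past 2-fold. *Hspb8*, with the highest level of the list, had 15646 and 10735 counts, a log2 ratio of -0.28, and *Cryab* had 284 and 180 (-0.39). The second gene past 2-fold, *Hspb2*, named after its value was seen, had only 17 and 6 counts and an interval that held 0 (-2.87 to 0.17). *Hspb3*, *Hspb9* and *Cryaa* were at 0 counts in both libraries. With the trends removed the list median was 0.21 and none was past 2-fold, so the shared direction depends on that choice.

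Of 14 class A and B J-domain proteins past the filter, 4 were past 2-fold higher and none lower. *Dnaja1*, an Hsp70 partner of the cytosol, had 3706 and 9544 counts (log2 ratio 1.63, and 0.31 with the trends removed), unlike *Dnajb1* above. *Dnajb4* had 362 and 935 counts (1.63, but -0.01 with the trends removed). *Dnajb2* had 3835 and 2281 counts (-0.49, but 0.11 with the trends removed). Among 16 mitochondrial chaperones and proteases, 4 were past 2-fold higher and none lower. *Hspa9*, the mitochondrial Hsp70, had 11460 and 23472 counts (1.30, and 0.64 with the trends removed), in the scaled counts close to *Hspd1*. *Yme1l1*, a protease of the inner membrane, had 706 and 2142 (1.86, but 0.24 with the trends removed). The matrix protease *Clpp* had 2532 and 1376 counts (-0.62, but 0.19 with the trends removed), and *Htra2* had 832 and 424 (-0.71, but 0.05). With the trends removed, no gene of either list was past 2-fold.

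Of the 28 co-chaperones of Hsp70 and Hsp90, 8 were past 2-fold higher and none lower, and 4 were past it with the trends removed. *Fkbp5*, which modulates steroid receptors bound to Hsp90, had 1441 and 3538 counts, a log2 ratio of 1.56, and 1.74 with the trends removed. *Dnajc2* had 124 and 407 counts (1.96, and 1.33 with the trends removed). *Fkbp4*, a relative of *Fkbp5* and the most abundant of the list, had 13724 and 7350 counts (-0.64, but -0.03 with the trends removed). *Sgta*, which hands membrane proteins on, had 6915 and 3408 (-0.76, but -0.04 with the trends removed). Of 14 subunits of the cytosolic chaperonin and of prefoldin, 3 were past 2-fold higher, *Cct6a* (2537 and 4497 counts, 1.09), *Cct8* (3219 and 5567, 1.05) and the prefoldin subunit *Vbp1* (111 and 219, 1.23). With the trends removed, *Cct6a* was at 0.75, *Cct8* at 0.09 and *Vbp1* at 0.02. *Pfdn5*, the most abundant of the list, had 4219 and 2213 counts (-0.67, but 0.10 with the trends removed). *Pfdn4* had 243 and 124 counts (-0.70) and was the 1 gene of the list past 2-fold lower with the trends removed, at -1.80, when none was past it higher.

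Of the factors that drive heat shock genes, *Hsf1* had 776 and 444 counts, a log2 ratio of -0.54 (-0.71 to -0.37), within 2-fold, and *Hsf2* had 349 and 666, a log2 ratio of 1.19 (1.01 to 1.39). With the trends removed they were at -0.10 and -0.04. *Hsf3* and *Hsf5* were at 0 counts in both libraries. *Hsf2bp*, a gene of few reads named after its value was seen, was the 1 gene of this list past 2-fold lower, with 23 and 5 counts. Among 24 heat-inducible HSF1 targets outside the 10 genes, 6 were past 2-fold higher and 1 lower, 11 ratios were above 0 and 13 below, and the median was -0.03. These shares are close to those of all genes, and with the trends removed 0 of the 24 were past 2-fold and the median was 0.11. The 1 lower gene, *Serpinh1*, the collagen chaperone Hsp47 of the endoplasmic reticulum, had 2253 and 723 counts, a log2 ratio of -1.37 (-1.50 to -1.25), and -0.74 with the trends removed. The collagen genes *Col1a1* (3620 and 603 counts) and *Col3a1* (9104 and 1858) were also lower. They belong to the 8 stellate cell and fibroblast markers, of which 3 were past 2-fold lower and 1 higher. The part of such cells or of collagen genes in the *Serpinh1* value was not tested.

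Of 15 endoplasmic reticulum chaperones 3 were past 2-fold higher and 1, *Serpinh1*, lower. *Dnajc3* had 3168 and 8185 counts (log2 ratio 1.63, and 0.27 with the trends removed). *Canx*, a lectin chaperone, had 6991 and 11801 (1.02, but -0.36 with the trends removed). *Calr*, its soluble relative, had 66146 and 35684 counts (-0.63, and -0.55 with the trends removed). None of this list was past 2-fold with the trends removed.

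Heat shock genes follow body temperature and the time of day, so clock and cold-inducible genes were read beside them. Of 16, 4 were past 2-fold higher and 2 lower, and 2 and 1 with the trends removed. *Nr1d2* had 666 and 3389 counts (log2 ratio 2.61, and 1.13 with the trends removed), *Clock* had 186 and 914 (2.55, and 0.53) and *Nr1d1* had 7777 and 2733 (-1.24, and -0.62). *Cry1* had 206 and 381 counts (1.14, and 1.29). The other lower gene was *Npas2*, named after its value was seen, with only 15 and 0 counts. It was also the 1 gene past 2-fold lower with the trends removed. The cold-inducible genes, named after their values were seen, were *Cirbp* with 432 and 361 counts (0.005, and 0.59) and *Rbm3* with 853 and 1279 (0.85, and 0.04). Immediate early genes, which respond within minutes to handling of tissue, held 5 of 18 past 2-fold lower and none higher, 16 of 18 had ratios below 0, and the summed level was 290 and 191 TPM. Over all genes 8.71% were past 2-fold lower. These genes had a median log2 ratio of -0.66, and of -0.15 with the trends removed, when 4 were past 2-fold lower (7.49% of all genes) and none higher. *Fosb* had 142 and 13 counts (-3.02), and *Atf3*, a stress-responsive factor, had 410 and 91 (-1.89, and -1.54 with the trends removed). The time of day at which the livers were taken is not given in the sources used here, and the part of timing or handling in the chaperone values was not tested.

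**Figure D4:**
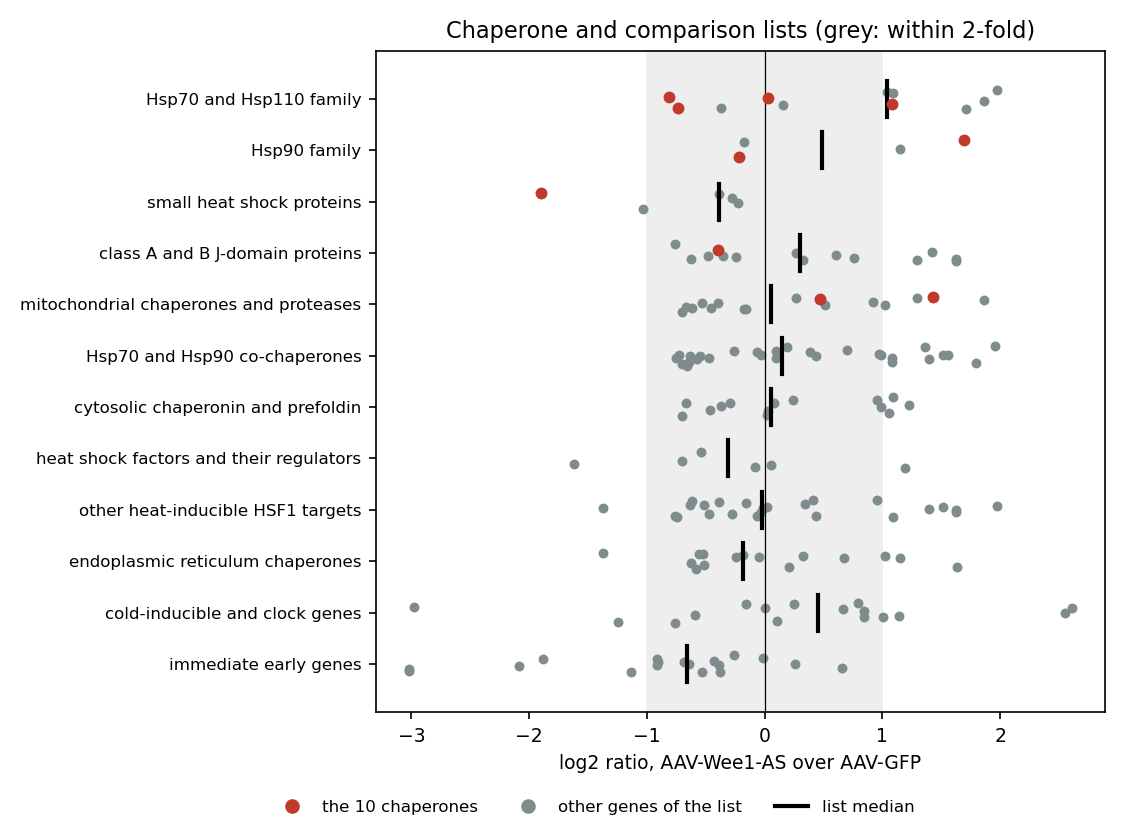
Log2 ratios (AAV-*Wee1-AS* over AAV-GFP) for the genes past the count filter in 10 chaperone lists and 2 comparison lists, with the 10 chaperones in red, the other genes in grey and the list median as a black bar. Medians reach from -0.66 in immediate early genes to 1.04 in the Hsp70 and Hsp110 family, and most genes of each list lie in the grey 2-fold band, except in the Hsp70 and Hsp110 family, with 6 of 11 past it, and the Hsp90 family, with 2 of 4.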

How the data were processed

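Liver poly-A RNA was sequenced as 1 library per group with a stranded kit and paired reads of 100 bases. The authors deposited 1 table of mm10 RefSeq transcripts with estimated counts, FPKM (fragments per kilobase, scaled to the library) and TPM per library. The submitters' processing notes name Trimmomatic 0.38, HISAT2 2.1.0, SAMtools 1.9 and StringTie 2.1.3b. As deposited, the estimated counts carry no normalization. They match FPKM multiplied by length and a library constant, rounded upward, and share reads out between transcripts. Whether mates were counted separately, and whether strand was used, is not given in the sources used here. If both mates were counted, the printed intervals are too narrow. With counts halved, an alternative added after the data were seen, the interval was 0.00288 to 0.05 for *Hspa8* and 0.93 to 1.23 for *Hsph1*, and 0 of the 10 chaperones had one that held 0.

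Estimated counts were summed per gene symbol and scaled by TMM of edgeR 4.0.16 (R 4.3.3), with factors of 1.02 and 0.980. These factors, and those of the other scalings, were taken over 20282 genes, before the count filter. Log2 ratios used a prior count of 2, for genes that reached 10 counts in 1 library or both. Exact Clopper-Pearson 95% intervals cover counting error only, as PCR copies are not separate molecules. Ratios above 2 or below 0.5 were counted. The depth was 55466182 and 48079335 counts, and a count of 0 allows up to 0.0541 and 0.0624 CPM (3 counts).

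GC content came from GENCODE M21 transcripts, for 95.2% of genes. Trends with GC content and length were removed in turn by lowess (span 0.3, 5 cycles). Windows of 100 bases of each transcript were searched in all other genes. The tools were Python 3.11.15, pandas 2.3.3, numpy 2.4.6, statsmodels 0.14.6, scipy 1.17.1 and, for plots, matplotlib 3.10.9, and the steps were tested on simulated data. The 10 genes and the lists were chosen with earlier results of these data known. Genes named from a list were taken from its gene with the highest TPM and, among those reaching 100 counts in a library, up to 3 with the highest and 3 with the lowest ratios. Alternatives were other scalings (library totals, DESeq2 1.42.0, upper quartile), a prior count of 0.5, FPKM or TPM with a pseudocount of 1, the transcript with most counts, other count filters and removal of the trends. *Wee1-AS* itself was not analysed here.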

Additional observations from a re-analysis of the deposited data

How the results depend on the processing

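Leaving out a replicate was not possible with 1 library per group. No paired analysis was possible because each group has 1 library. Members past 2-fold numbered 4 in the main analysis, 3 or 4 under all alternatives but removal of the trends with GC content and length, which gave 0. The share of all genes past 2-fold, 31.0%, was 8.43% with FPKM and 12.9% with TPM, each with 3 members past it, and 13.9% with the trends removed. The upper quartile exchanged *Hsph1* (0.87) for *Hspa1b* (-1.02). The median log2 ratio of the chaperones, -0.09, was -0.15 with library totals, -0.12 with DESeq2 size factors, -0.30 with the upper quartile, -0.14 with FPKM, -0.12 with TPM and 0.082 with the trends removed. The 34 chaperone list genes past 2-fold were 20 with FPKM and a pseudocount of 1, which shrinks low genes, and 7 with the trends removed. The upper quartile shifted the median of all genes by -0.20, and the share of higher calls, 71.9%, was 56.8% with it and 46.2% with the trends removed. *Hspa8* kept its sign in 5 of 8 alternatives and the other 9 genes kept theirs in 8 of 8. At counts of *Hspa1a* the interval is widest, and the spread between mice cannot be estimated at any depth.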
